A study of Mus musculus with 6 samples.

Results

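Oxidative phosphorylation was examined through the nuclear genes whose symbols place them in the 5 complexes of the inner mitochondrial membrane. Genes were taken by symbol and by a minimum mean count, with no use of the difference between genotypes, although earlier results of these data were known when the set was proposed. Complex I was taken as the symbols that begin with Ndufa, Ndufb, Ndufc, Ndufs or Ndufv, complex II as Sdha, Sdhb, Sdhc and Sdhd, complex III as symbols that begin with Uqcr, complex IV as the Cox4 to Cox8 symbols, and complex V as symbols that begin with Atp5. Numbered pseudogenes and genes with a mean under 10 normalized counts over the 6 libraries were left out. Of 98 matching symbols, 92 remained among the 26264 genes of the table: 48 in complex I, 4 in complex II, 8 in complex III, 15 in complex IV and 17 in complex V. They are 83 subunit genes, 8 complex I assembly factors (Ndufaf symbols) and Ndufs5-ps, which its symbol names as a pseudogene. The pseudogene Cox7c-ps1 and 5 genes under the minimum were left out. Nearest the minimum stood Ndufb4c inside it, with a mean of 13.2 normalized counts, and Cox7b2 outside it, with 9.76. All 92 genes passed the filter and were tested.

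The libraries were made from hematopoietic stem cells (HSCs, the blood-forming cells at the root of the bone marrow hierarchy) of 8-week-old, untreated female mice. One group was WT C57Bl/6 (3 mice) and the other Irf1-/-, the B6.129S2-Irf1tm1Mak/J strain (3 mice), in which IRF1, a transcription factor of the interferon response, is missing from every cell of the body and not from HSCs alone. HSCs were sorted by surface markers as Lin- Sca-1+ Kit+ CD150+ CD48- cells, and each library came from the cells of 1 mouse. In both genotypes the replicate numbers used below are the 2, 3 and 4 of the library names in the sample descriptions. The sample titles number the same libraries 1, 2 and 3, in the same order, so that WT replicate 3 is the second WT library by title.

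Complex I takes electrons from NADH and complex II takes them from succinate. Both pass them through ubiquinone to complex III, then by way of cytochrome c to complex IV, which hands them to oxygen. Complexes I, III and IV pump protons, and complex V, the ATP synthase, lets the protons flow back and makes ATP. Complexes I, III, IV and V also hold subunits encoded by mitochondrial DNA, which were not analysed here. HSCs at rest are known for leaning on glycolysis and for a rise in mitochondrial respiration when they enter the cycle and differentiate.

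Reads on genes were between 43138521 and 59658080 per library. A normalized count here is a gene's read count divided by 1 size factor per library. Irf1 itself had normalized counts of 10122, 11119.6 and 12058 in WT and 9267, 9524 and 9287 in Irf1-/- (log2 fold change -0.24 ± 0.088 (SE), adjusted p = 0.170 in limma). The groups did not overlap, but the count covers the whole gene, so transcripts of the altered allele would be counted too and it is a weak check of genotype. The HSC marker Kit was abundant, between 77902 and 88715 normalized counts over the libraries. Of 9 HSC markers, Fgd5 (0.83) and Procr (0.52) were higher in Irf1-/- and Ly6a, which encodes the sorting marker Sca-1, was lower (-0.43 on the log2 scale), each at an adjusted p under 0.05 in limma, which Ly6a lost without Irf1-/- replicate 2, Irf1-/- replicate 4 or WT replicate 3. Cd48, negative in the sort, stood at 257 to 431 normalized counts. The hemoglobin genes Hba-a1, Hba-a2, Hbb-bs and Hbb-bt were listed at 0 in all 6 libraries.

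WT replicate 3 stood apart from the other WT libraries for these genes. It was the lowest of the 6 libraries for 38 of the 92 genes and the highest for 23. Irf1-/- replicate 2 was the lowest for 41. The counts and medians of the complexes are therefore also given without each of these libraries.

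Transcripts of the respiratory complexes lay mostly and slightly lower in Irf1-/- HSCs than in WT HSCs. Of the 92 genes, 67 had a lower mean and 25 a higher one on the log2 scale. Their median log2 fold change was -0.098, against -0.0028 over all 17404 tested genes and -0.034 over the 8388 genes with a mean of at least 1000 normalized counts. No member passed the threshold in either direction (limma adjusted p under 0.05, with a log2 fold change beyond 0.58 in size). Over all tested genes, 0.954% were called lower and 0.96% higher by that rule. edgeR and DESeq2 on the recovered reads also called 0 members. By the adjusted p alone, 1 member was lower and 0 higher in limma, against 1.49% and 1.73% of all tested genes. The count lower was 1 in edgeR, which had 1.53% of all tested genes lower by the same rule, and 7 in DESeq2 (Atp5c1, Atp5g3, Atp5o, Atp5pb, Cox5a, Ndufv2 and Sdhb), which had 3.76%. At an unadjusted p under 0.05 the counts were 19 lower and 0 higher, against 8.07% and 8.38%. In 25 members (27.2%) all 3 Irf1-/- libraries lay below all 3 WT libraries, and in 1 they lay above. Over all tested genes these shares were 9.27% and 10.6%, and among the abundant genes 13.4% and 12.1%. In a bulk sample, fewer cells that make a transcript and less of it per cell cannot be told apart.

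**Figure D1:**
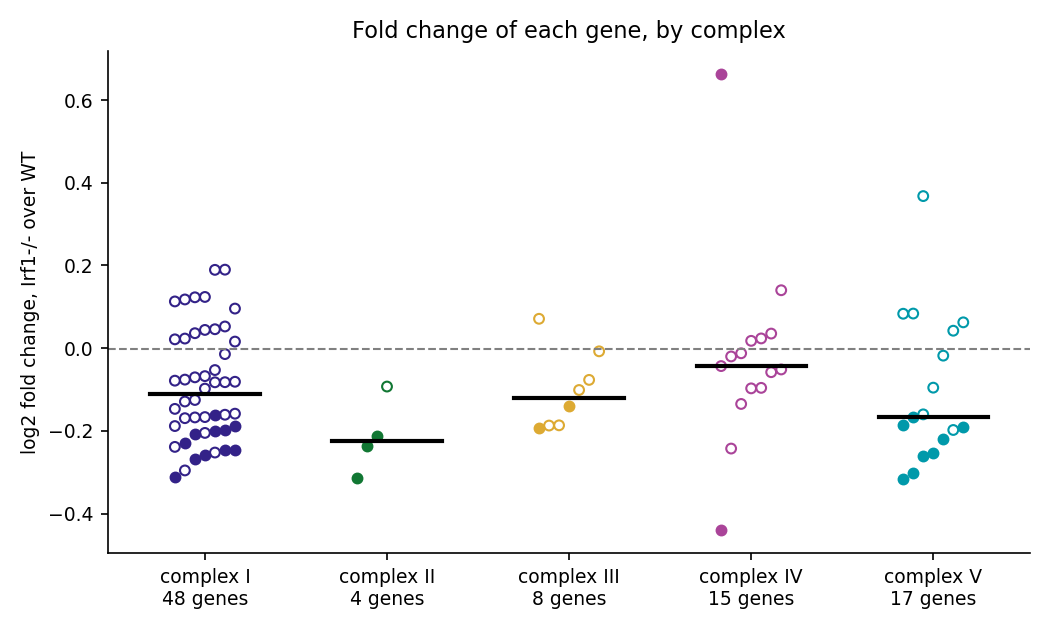
Log2 fold change (Irf1-/- over WT) of each of the 92 genes, in 1 column per complex, with filled points where the 3 libraries of one genotype do not overlap the 3 of the other, a black line at each complex's median and a dashed line at the median of all tested genes. The medians run from -0.22 in complex II to -0.043 in complex IV (without WT replicate 3, -0.21 and -0.21), and the points at the extremes are Cox5a (-0.44) and the low-count gene Cox7a1 (0.66).

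The gene past the adjusted p was Cox5a, a nuclear subunit of cytochrome c oxidase (complex IV). Its normalized counts were 4659, 4147 and 4579 in WT and 2897, 3818 and 3198 in Irf1-/-. The highest Irf1-/- library lay below the lowest WT library, and the group means were 4461 ± 275 in WT and 3305 ± 469 in Irf1-/- (SD, n = 3 each). In limma this gave log2 fold change -0.44 ± 0.11 (SE), adjusted p = 0.0422, a fall that stayed under the fold threshold. This result depended on the setting: its adjusted p ranged from 0.00372 to 0.316 over 19 alternatives and was under 0.05 in 12 of them, and it was not under 0.05 on leaving out any 1 of 5 libraries (all but Irf1-/- replicate 3), although its log2 fold change stayed between -0.55 and -0.35. The next members by adjusted p were Atp5g3 (0.0655), Ndufv2 (0.0761), Atp5o (0.0922) and Sdhb (0.0954), none of which passed in limma with all 6 libraries and the settings used here. All 4 passed in DESeq2, and up to 3 of them in some of the other limma settings without a replicate block.

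Promoters are shown because members of all 5 complexes were among those lower with no overlap. RefSeq promoter windows (250 bases before to 50 after a transcript start, assembly GRCm38.p6) were found for 75 of the 92 genes, as 80 windows. Both strands were searched for the letters GCGCATGC (bound by NRF1, a known regulator of respiratory genes), CCGGAAG (the ETS family, which includes GABPA), AAGATGGC (YY1) and GAAANNGAA (the IRF family), and no motif contains another. The NRF1 letters were in 12 of the 80 members' windows (15.0%), against 2.71% of all 32851 windows and 4.35% of those of tested genes. The ETS letters were in 23.8% against 8.86% and 14.3%, and the YY1 letters in 13.8% against 2.75% and 3.61%. The IRF letters were in 7 windows (8.75%), beside 8.56% of all windows and 7.40% of those of tested genes. The 7 genes were Atp5g1, Cox7c, Ndufa9, Ndufb8, Ndufs3, Ndufs6 and Ndufv1, of which Ndufa9 and Ndufb8 were among those lower with no overlap. Among matched genes the NRF1 letters were in 3 of 21 lower with no overlap (14.3%) and 9 of 54 others (16.7%), and the ETS letters in 2 of 21 (9.52%) and 17 of 54 (31.5%), so neither was more common among the former. The YY1 letters were in 4 of 21 (19.0%) and 7 of 54 (13.0%), and the IRF letters in 2 of 21 (9.52%) and 5 of 54 (9.26%). These shares rest on few genes and were not tested. A match is a run of letters and not a measured binding site.

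The windows below are those of Cox5a (chr9:57520982-57521281 on the plus strand) and of the 3 members lower with no overlap whose window holds the NRF1 letters: Sdhb (chr4:140961021-140961320 on the plus strand), Uqcrc1 (chr9:108936398-108936697 on the plus strand) and Atp5g2 (chr15:102670998-102671297 on the minus strand). Each is written 5′ to 3′ along the gene's strand, with matches to the 4 motifs in capitals. In Uqcrc1 and Atp5g2 a match on either strand overlaps, which gives 1 run of 10 capitals.
Cox5a: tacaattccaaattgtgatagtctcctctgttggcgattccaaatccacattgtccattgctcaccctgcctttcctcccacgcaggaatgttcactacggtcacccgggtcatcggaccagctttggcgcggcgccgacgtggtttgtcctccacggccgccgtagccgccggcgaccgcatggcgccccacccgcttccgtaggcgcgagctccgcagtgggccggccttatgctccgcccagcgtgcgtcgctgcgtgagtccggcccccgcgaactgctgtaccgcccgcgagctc
Sdhb: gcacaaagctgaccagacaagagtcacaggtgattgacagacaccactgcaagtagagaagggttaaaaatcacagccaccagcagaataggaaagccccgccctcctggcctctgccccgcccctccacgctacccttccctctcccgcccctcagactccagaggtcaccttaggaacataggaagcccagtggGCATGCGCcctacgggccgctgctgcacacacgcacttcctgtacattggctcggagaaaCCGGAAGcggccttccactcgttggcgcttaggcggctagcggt
Uqcrc1: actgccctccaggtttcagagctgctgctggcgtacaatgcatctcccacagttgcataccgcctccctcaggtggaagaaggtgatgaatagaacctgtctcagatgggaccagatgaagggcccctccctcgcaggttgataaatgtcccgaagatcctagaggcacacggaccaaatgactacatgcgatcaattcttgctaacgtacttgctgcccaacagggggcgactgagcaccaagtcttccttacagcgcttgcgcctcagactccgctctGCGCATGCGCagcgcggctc
Atp5g2: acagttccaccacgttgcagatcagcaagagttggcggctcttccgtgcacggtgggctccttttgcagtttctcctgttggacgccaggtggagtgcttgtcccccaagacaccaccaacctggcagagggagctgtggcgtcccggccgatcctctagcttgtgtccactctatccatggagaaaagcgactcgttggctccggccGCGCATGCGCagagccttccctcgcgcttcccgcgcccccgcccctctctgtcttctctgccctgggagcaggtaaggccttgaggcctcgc
The Cox5a window holds none of the 4 motifs. In Sdhb the NRF1 match begins 54 bases before the transcript start and the ETS match at base 7 of the transcript.

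In complex I, 34 of 48 genes had a lower mean and 14 a higher one, with a median log2 fold change of -0.11. In 11 of them (22.9%) the genotypes did not overlap, all 11 lower in Irf1-/-, against 9.27% of all tested genes and 13.4% of the abundant ones, and 9 were lower at an unadjusted p under 0.05, against 8.07%. No gene passed the adjusted p. Leaving out 1 library changed these values: without Irf1-/- replicate 2 the median was -0.031, with 28 genes lower and 20 higher, and without WT replicate 3 it was -0.18, with 45 lower and 3 higher. Without Irf1-/- replicate 3 it was -0.19, and without WT replicate 2 -0.066. The 7 nuclear core subunits, which carry the flavin and the iron-sulfur clusters, were lower in 7 of 7, with a median of -0.19 (-0.13 without Irf1-/- replicate 2, with 7 of 7 lower). The largest difference among them was in Ndufv2, an iron-sulfur subunit of the NADH-oxidizing tip, with normalized counts of 7144, 7765 and 7132 in WT and 5672, 6404 and 5707 in Irf1-/- (log2 fold change -0.31 ± 0.088 (SE), adjusted p = 0.0761 in limma). The 3 Irf1-/- libraries lay below every WT library. Ndufs1, the largest core subunit, had 6226, 6226 and 6305 in WT and 5342, 5974 and 5169.8 in Irf1-/- (-0.19 on the log2 scale, adjusted p = 0.299). Ndufs7, next to the ubiquinone site, had 9075, 9092 and 8903 in WT and 7179, 8831 and 7674 in Irf1-/- (-0.20, adjusted p = 0.301). In both genes the genotypes were separate, by a small margin between Irf1-/- replicate 3 and the lowest WT library. Ndufs8 (-0.24), Ndufv1 (-0.15) and Ndufs3 (-0.13) overlapped between genotypes.

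Of the accessory subunits around this core, the lowest fold changes were in Ndufb10 (-0.27), Ndufa10 (-0.26), Ndufa9 (-0.25) and Ndufb5 (-0.25), each with no overlap and with adjusted p between 0.173 and 0.270. Ndufa9 lies by the ubiquinone site and the other 3 in the membrane arm. The membrane arm as a whole had 15 of 21 genes lower and a median of -0.082, the NADH-oxidizing N module 6 of 8 and -0.14, and the ubiquinone-reducing Q module 5 of 8 and -0.14. Without WT replicate 3 the medians were -0.21, -0.18 and -0.16, so the membrane arm no longer had the smallest difference of the 3. Without Irf1-/- replicate 2 they were -0.018, -0.049 and -0.080, and without Irf1-/- replicate 3 -0.18, -0.23 and -0.25. At the other end stood Ndufa3 and Ndufa1, small membrane subunits. Ndufa3 had 3859, 1985 and 3097 in WT and 2966, 3564 and 3330.2 in Irf1-/- (0.19, adjusted p = 0.685) and Ndufa1 had 2598, 1447 and 2591 in WT and 2331, 2547 and 2431 in Irf1-/- (0.19, adjusted p = 0.683). In both, WT replicate 3 was the lowest library by far, and WT replicate 2 lay above all Irf1-/- libraries. WT replicate 4 lay above them for Ndufa1 and among them for Ndufa3. Without WT replicate 3 the log2 fold changes turned to -0.077 and -0.091. The 8 assembly factors, which build the complex and are not part of it, had a median of -0.11, with 6 of 8 lower. With Irf1-/- replicate 2 left out it was -0.058, and with WT replicate 3 left out -0.070, with 5 of 8 lower in both. Ndufaf4 had the lowest value, with 1739.6, 1917 and 1328 in WT and 1178, 1365 and 1488 in Irf1-/- (-0.30, adjusted p = 0.328), and its libraries overlapped. Ndufaf2 and Ndufaf7 did not overlap, at -0.21 and -0.16. Ndufa4, named for complex I and now known as a complex IV subunit, was at 0.023, and its hypoxia-linked relative Ndufa4l2 had at most 2 reads in any library.

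In complex II the median was -0.22, and the 4 genes were lower in 4 of 4. This was the lowest median of the 5 complexes with all 6 libraries, but without WT replicate 3 it was -0.21, beside -0.18 in complex I, -0.17 in complex III, -0.21 in complex IV and -0.19 in complex V. Leaving out Irf1-/- replicate 2 gave -0.19, with 4 of 4 lower. Sdhb, the iron-sulfur subunit, had 9509, 10031 and 9753 in WT and 7241, 8952 and 7471 in Irf1-/- (log2 fold change -0.31 ± 0.094 (SE), adjusted p = 0.0954 in limma). Sdhd, a membrane anchor, had 11917, 13006 and 11847 in WT and 10026, 11205 and 9984 in Irf1-/- (-0.24, adjusted p = 0.174), and Sdhc, the other anchor, 5976, 5829.7 and 5797 in WT and 4739.6, 5471 and 5009 in Irf1-/- (-0.21, adjusted p = 0.235). In these 3 genes every Irf1-/- library was under every WT library, and each had an unadjusted p under 0.05. Over all tested genes 9.27% were lower with no overlap (13.4% of the abundant ones) and 8.07% were lower at an unadjusted p under 0.05. Sdha, the flavin subunit that oxidizes succinate, had 40057, 43695 and 39208 in WT and 37371, 42727 and 35430.4 in Irf1-/- (-0.093, adjusted p = 0.721), with Irf1-/- replicate 3 above both WT replicate 2 and WT replicate 4. WT replicate 3 was the highest library for Sdha, Sdhb and Sdhd, unlike its place in most members of complex IV.

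In complex III, 7 of 8 genes had a lower mean and the median was -0.12. Without Irf1-/- replicate 2, 5 of 8 were lower and the median was -0.052, and without WT replicate 3, 8 of 8 and -0.17. None reached an unadjusted p under 0.05. Uqcrc1, a core subunit and per kilobase the most abundant of the complex, had 30432, 33998 and 30963 in WT and 27136, 30041 and 26264 in Irf1-/- (log2 fold change -0.19 ± 0.091 (SE), adjusted p = 0.307 in limma) and no overlap. Its partner Uqcrc2 had 7893, 9143 and 8608 in WT and 7045, 8187 and 7297 in Irf1-/- (-0.19, adjusted p = 0.339), with Irf1-/- replicate 3 above WT replicate 2. Uqcrfs1, the Rieske iron-sulfur protein, had 5045, 5239 and 4943 in WT and 4602, 4762 and 4466 in Irf1-/- (-0.14, adjusted p = 0.469) and no overlap. These 3 genes had a median of -0.19, and the 5 small subunits Uqcrb, Uqcrh, Uqcrq, Uqcr10 and Uqcr11 one of -0.077, with no gene free of overlap. The order turned without WT replicate 3, to -0.14 for the former and -0.21 for the latter. With Irf1-/- replicate 2 left out the medians were -0.14 and 0.031. Uqcr10 (-0.0077) and Uqcr11 (0.071) were the highest, and their sign changed with the libraries used.

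In complex IV the median was -0.043, with 10 of 15 genes lower. This was the median nearest 0 with all 6 libraries, but it was -0.21 without WT replicate 3, level with complex II, with 14 of 15 genes lower. It turned to 0.022 without Irf1-/- replicate 2, 0.044 without WT replicate 2 and 0.055 without WT replicate 4. Beside Cox5a, its partner Cox5b had 5627, 4089 and 5361 in WT and 4352, 5073 and 4575 in Irf1-/- (-0.096, adjusted p = 0.773) and Cox4i1, per kilobase the most abundant complex IV subunit, 13572, 12404 and 14091 in WT and 11190.2, 13925 and 12436 in Irf1-/- (-0.097, adjusted p = 0.705), and WT replicate 3 lay below all Irf1-/- libraries for Cox5b and below Irf1-/- replicates 3 and 4 for Cox4i1. The 4 COX4 and COX5 genes had a median of -0.17 and the 11 COX6, COX7 and COX8 genes one of -0.012. Without WT replicate 3 these medians were -0.37 and -0.21, and without Irf1-/- replicate 2 -0.12 and 0.039. Leaving out WT replicate 4 gave -0.050 for the former, with 3 of 4 lower, and 0.058 for the latter, with 2 of 11 lower. Among the ubiquitous isoforms of the latter, the fold changes were -0.13 for Cox6a1, 0.018 for Cox6b1, -0.052 for Cox7a2 and -0.020 for Cox8a, with overlap in all 4. On leaving out WT replicate 3 they were -0.27, -0.19, -0.25 and -0.21, and Cox5b and Cox4i1 were -0.24 and -0.15. Cox7a2l, which helps join complexes III and IV, was at -0.012. Isoforms known from particular tissues had fewer counts than these, Cox7a1 and Cox4i2 far fewer. Cox7a1, the muscle isoform, had 15.6, 12.4 and 17.2 in WT and 26.7, 22.5 and 23.9 in Irf1-/- (log2 fold change 0.66 ± 0.57 (SE), adjusted p = 0.647). It was the 1 member whose Irf1-/- libraries all lay above WT, at low counts and without reaching an unadjusted p under 0.05. Cox4i2, the lung and hypoxia isoform, had 135, 87.9 and 203 in WT and 107, 114 and 119 in Irf1-/- (-0.24), with overlap, and Cox6b2, the testis isoform, 1019.6, 764 and 1059 in WT and 1119, 1037 and 951 in Irf1-/- (0.14), with WT replicate 3 lowest. Cox8c had 3.46 to 27.7 normalized counts. Cox6a2 and Cox8b, known from heart and skeletal muscle, had at most 9 and 3 reads in a library and were not tested.

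In complex V, 12 of 17 genes had a lower mean, the median being -0.17. Without Irf1-/- replicate 2, 11 were lower and the median was -0.12, and without WT replicate 3, 16 and -0.19. In 8 genes (47.1%) the genotypes did not overlap, all lower in Irf1-/-, against 9.27% of all tested genes and 13.4% of the abundant ones. At an unadjusted p under 0.05, 6 genes were lower, against 8.07% of all tested genes. Atp5g3, which encodes the proton-carrying c subunit, had 10283, 10247 and 10529.8 in WT and 7769, 9046 and 8189.6 in Irf1-/- (log2 fold change -0.32 ± 0.086 (SE), adjusted p = 0.0655 in limma). The SD over its WT libraries was 154 normalized counts, and all Irf1-/- libraries were below them. Atp5o, the stalk subunit that confers oligomycin sensitivity, had 8329.5, 7968 and 8184 in WT and 6289.6, 7381 and 6234 in Irf1-/- (-0.30, adjusted p = 0.0922). Atp5pb, the b subunit of the same peripheral stalk, had 13369.9, 14531 and 12472 in WT and 10635, 12129 and 10912 in Irf1-/- (-0.26, adjusted p = 0.152). Both were separate between genotypes, and the 4 stalk genes were lower in 4 of 4 with a median of -0.23. The 5 genes of the catalytic F1 head had a median of -0.19, with 4 lower. Its beta subunit Atp5b, per kilobase the most abundant of the genes with a length, had 85372, 97206 and 87048 in WT and 73959, 81717 and 75610.1 in Irf1-/- (-0.22, adjusted p = 0.283). The alpha subunit Atp5a1 had 60944, 65201 and 60188 in WT and 52999, 60006 and 53103 in Irf1-/- (-0.17, adjusted p = 0.426) and the gamma shaft Atp5c1 13350.1, 14444 and 13036 in WT and 10776, 12195 and 11303 in Irf1-/- (-0.25, adjusted p = 0.143). In these 3 and in Atp5d the genotypes were separate, and the epsilon subunit Atp5e (0.062, -0.19 without WT replicate 3) overlapped. Of the 5 small membrane subunits, 4 had a higher mean in Irf1-/- and none a p under 0.05, with a median of 0.083. Atp5k had 885, 439.5 and 769 in WT and 781, 931 and 884 in Irf1-/- (0.37, adjusted p = 0.442, and 0.065 without WT replicate 3), and Atp5md was at 0.084. All 5 overlapped, and WT replicate 3 was their lowest library. Without it, 4 of 5 were lower and the median was -0.14, and without Irf1-/- replicate 2, 0 of 5 and 0.14. Atpif1, the inhibitor of the ATP synthase, falls outside the symbols and had 10262, 6771 and 9692 in WT and 8157, 8455 and 9118 in Irf1-/- (-0.033), with overlap.

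**Figure D2:**
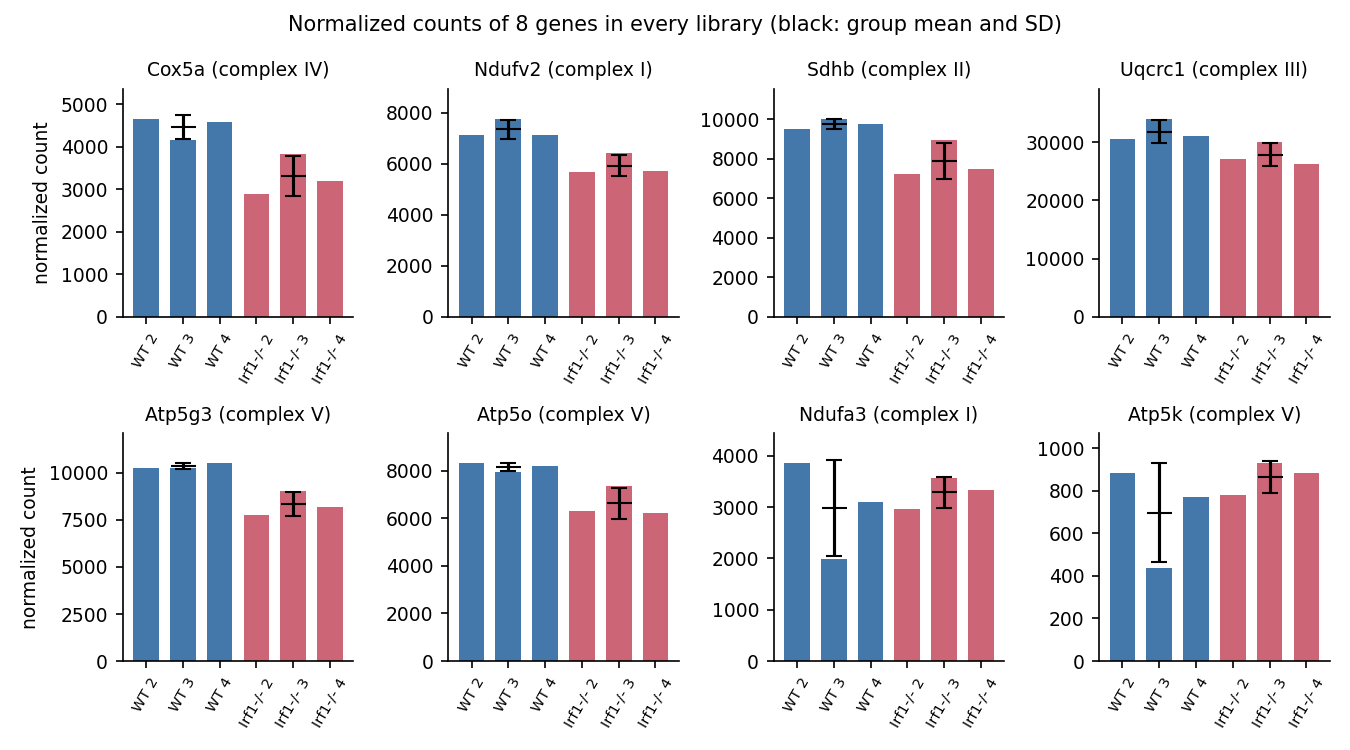
Normalized counts of 8 genes in each library as bars from 0 (WT blue, Irf1-/- red, replicate numbers on the axis), with the group mean and SD of 3 libraries in black. Cox5a, Ndufv2, Sdhb, Uqcrc1, Atp5g3 and Atp5o show 3 lower Irf1-/- bars, and Ndufa3 and Atp5k show a low bar for WT replicate 3 (1985 and 439.5).

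**Figure D3:**
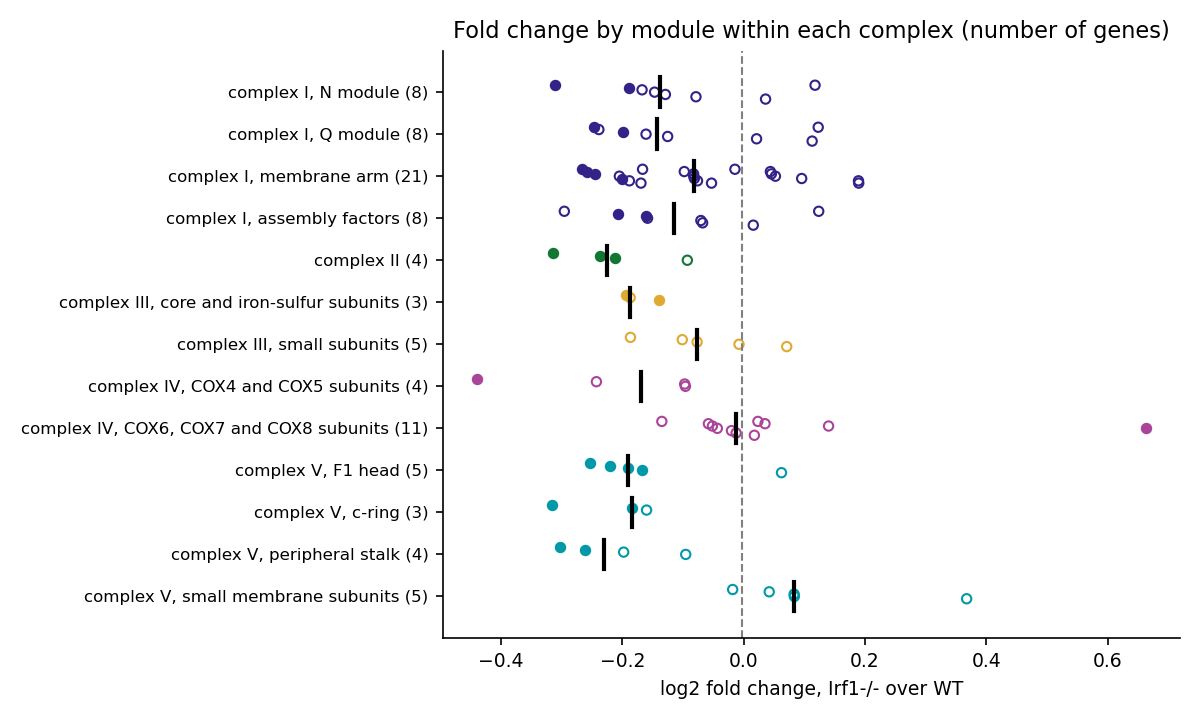
Log2 fold change (Irf1-/- over WT, horizontal axis) of the genes of each module, 1 row per module with its number of genes, filled points for no overlap between genotypes, a black bar at the module's median and a dashed line at the median of all tested genes. The complex V small membrane subunits are the module with a median above 0 (0.083), which was -0.14 without WT replicate 3. Ndufa4, Ndufb4c and Ndufs5-ps are in no module.

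A score per library, the mean over a complex's genes of the deviation of log2(normalized count + 1) from that gene's mean over the 6 libraries, showed how the libraries shared these differences. For complex II the scores were 0.086, 0.16 and 0.075 in WT and -0.18, 0.034 and -0.17 in Irf1-/-, and this was the one complex in which the genotypes did not overlap. For complex I they were 0.14, -0.10 and 0.10 in WT and -0.18, 0.10 and -0.057 in Irf1-/-. For complex III they were 0.15, -0.13 and 0.14 in WT and -0.18, 0.088 and -0.062 in Irf1-/-. In both, Irf1-/- replicate 2 was lowest, WT replicate 3 next and Irf1-/- replicate 4 after it, with Irf1-/- replicate 3 near the other WT libraries. For complex V they were 0.15, -0.12 and 0.13 in WT and -0.18, 0.070 and -0.044 in Irf1-/-, with the same 3 lowest libraries. For complex IV they were 0.14, -0.32 and 0.21 in WT and -0.028, -0.018 and 0.014 in Irf1-/-, where the Irf1-/- libraries lay close to one another and WT spread from the lowest to the highest score. The 4 complex II genes all have transcripts of at least 800 bases, the length split used below. Scores over the genes of that length did not overlap between genotypes in complexes III (3 genes) and V (7 genes) either. In complexes I and IV such scores overlapped. The complexes share libraries, so their scores are not independent, and the differences between complexes were not tested.

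**Figure D4:**
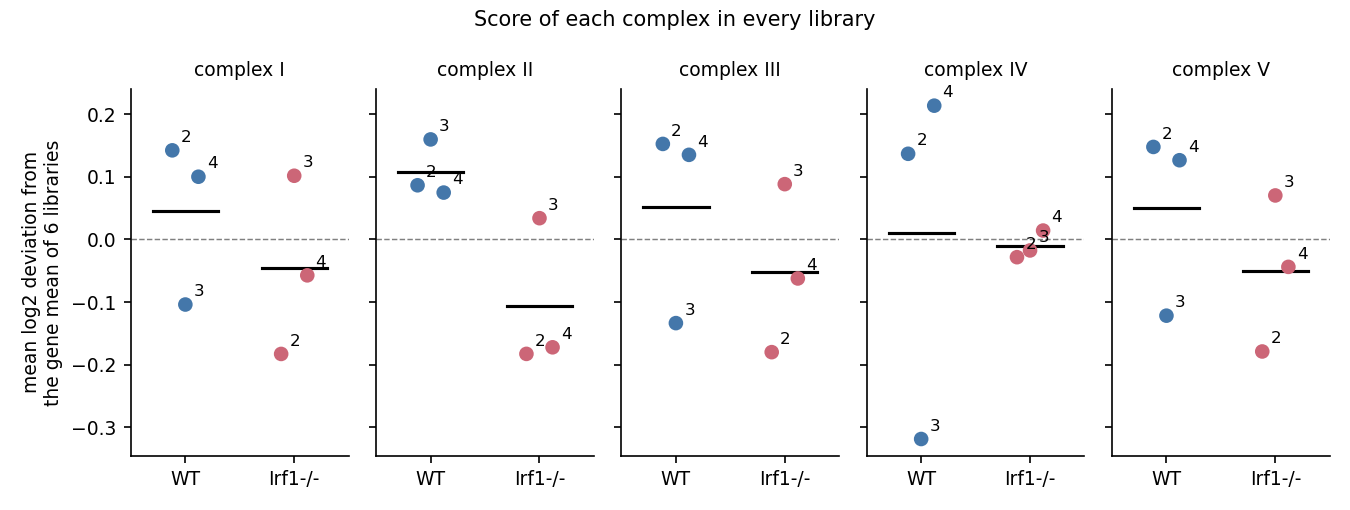
Score of complexes I to V (mean log2 deviation from the gene mean of the 6 libraries, vertical axis) in each library, with replicate numbers beside the points and a black line at each genotype's mean. WT replicate 3 lies below the other WT libraries in complexes I, III, IV and V and above them in complex II (0.16).

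Among these genes the place of WT replicate 3 went with transcript length. Lengths came from GENCODE vM1 for 89 of the 92 genes. Across these genes, which are not independent replicates, the deviation of WT replicate 3 correlated with log length (Pearson r = 0.68, Spearman rho = 0.72), and the log2 fold change did so in the opposite direction (r = -0.50, rho = -0.54). Both measures hold the same WT library. Without WT replicate 3 the fold change had r = -0.013 with length. The 42 genes with transcripts of at least 800 bases had a median log2 fold change of -0.16, with 37 lower and 17 (40.5%) lower with no overlap, against 13.3% of the 7905 abundant tested genes of that length. The 47 shorter genes had -0.053, with 28 lower and 7 (14.9%) with no overlap, against 15.7% of the 332 abundant tested genes under 800 bases, whose median was -0.046. With all 6 libraries the shorter members were thus near the background of genes of their length. That background is not given here without WT replicate 3. WT replicate 3 was the lowest library for 29 of the 47 short genes and the highest for 22 of the 42 longer ones. In that library the 332 abundant tested genes under 800 bases had a score of -0.13, and the 83 cytosolic ribosomal protein genes one of -0.27. The relation with length was not general: over 8237 abundant tested genes the deviation of WT replicate 3 had r = -0.0068 (rho = -0.088) with log length, and the fold change r = 0.12 (rho = 0.17), of opposite sign to that of the members. Removing a smooth trend with length from each library left the members' fold change at r = -0.46. The cause of this pattern was not tested. Without WT replicate 3, 87 of 92 genes were lower, the median was -0.19, and 52 genes (56.5%) were lower with no overlap, against 13.0% of all tested genes in the same 5 libraries. No member then passed the adjusted p. Without Irf1-/- replicate 2, the lowest of its group, 55 were lower, the median was -0.040, and 25 were lower with no overlap (27.2%), against 13.3%. With both left out, 82 were lower, with a median of -0.12 and 52 with no overlap (56.5%), against 18.9% of all tested genes. Without Irf1-/- replicate 3, whose scores for complexes I, III and V were the highest of its group, 78 were lower and 39 had no overlap (42.4%), against 18.0%.

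Levels differed far more between members than between genotypes. Per kilobase of transcript, over the mean of the 6 libraries, Atp5b had 43573 normalized counts, Atp5a1 23772, Cox4i1 19052 and Uqcrc1 18009.5, and these were the 4 highest. Sdha stood at 13706, above Sdhd at 8804, Sdhb at 7729 and Sdhc at 1725, although complex II holds 1 copy of each. The highest complex I genes per kilobase were Ndufb8 (12447), Ndufb9 (11956) and Ndufs7 (11159.5), apart from Ndufa4 (13005). Assembly factors were lower, from 414 for Ndufaf4 to 1894 for Ndufaf8. These levels rest on 1 annotated transcript per gene.

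Shares of paralogs were computed per kilobase in each library (mean ± SD, n = 3 per genotype). Cox4i2 made up 0.969% ± 0.339 in WT and 0.843% ± 0.0728 in Irf1-/- of Cox4i1 plus Cox4i2. Cox6b2 made up 12.3% ± 0.948 in WT and 13.3% ± 2.00 in Irf1-/- of its pair with Cox6b1, and Cox7a1 1.08% ± 0.0915 in WT and 1.83% ± 0.372 in Irf1-/- of its pair with Cox7a2. The Cox4i2 and Cox6b2 shares overlapped between genotypes, and that of Cox7a1 did not, on few counts. The 3 genes of the c subunit make the same mature protein. Atp5g3 held 50.3% ± 1.20 in WT and 47.7% ± 0.707 in Irf1-/- of their sum, Atp5g1 35.4% ± 1.09 in WT and 37.4% ± 0.239 in Irf1-/- and Atp5g2 14.3% ± 0.376 in WT and 14.9% ± 0.533 in Irf1-/-. Each Irf1-/- library had a smaller Atp5g3 share than each WT library, a difference that was not tested. Reads from near-identical copies and from pseudogenes of these small genes may be assigned to more than 1 gene, which makes these shares uncertain.

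Genes that work with the complexes but carry other symbols were taken from lists. Of 11 tested electron carriers and related genes, 10 had a lower mean, with a median log2 fold change of -0.24, and 6 (54.5%) were lower with no overlap, against 9.27% of all tested genes and 13.4% of the abundant ones. Against 1.49% of all tested genes lower by the adjusted p, 1 of the 11 passed it. That gene was Slc25a5, the ADP/ATP translocase that exports ATP from the matrix, with 36293, 40796 and 32682 in WT and 23639, 28178 and 24091 in Irf1-/- (log2 fold change -0.53 ± 0.10 (SE), adjusted p = 0.0134 in limma). The genotypes did not overlap and the fall was under the fold threshold. Its adjusted p was 0.0746 without Irf1-/- replicate 2, 0.0952 without Irf1-/- replicate 4 and 0.0520 without WT replicate 2. Cycs, cytochrome c, had 3389.6, 3347 and 2939 in WT and 2095, 2753 and 2359 in Irf1-/- (-0.43, adjusted p = 0.0568). Cyc1, the cytochrome c1 subunit of complex III, had 13312, 14576 and 12664 in WT and 10559, 11782 and 9876 in Irf1-/- (-0.33, adjusted p = 0.0737). Both were separate between genotypes. Etfa (-0.28) and Etfb (-0.28), which bring electrons from fatty acid oxidation, did not overlap either. The paralog Slc25a4 was at -0.072, with overlap (0.012 without Irf1-/- replicate 2).

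Among the tested assembly factors outside the symbols (11 for complex I, 4 for II, 6 for III, 24 for IV and 5 for V), 1 gene was called. Over all tested genes 0.954% were called lower. Lyrm7, a chaperone of the Rieske protein in complex III, had 314, 301 and 439 in WT and 146, 132 and 143 in Irf1-/- (log2 fold change -1.30 ± 0.23 (SE), adjusted p = 0.00713 in limma), so that it fell past both thresholds, on counts far below those of most subunits. The call held without any 1 library, and its adjusted p was 0.0838 without the mean-variance trend. Its client Uqcrfs1 differed by -0.14. The other 5 tested complex III factors lay between -0.13 and 0.046. No gene of the other assembly lists passed the adjusted p. Of 11 complex I factors, 9 were lower (median -0.094), with Foxred1 (-0.26) and Dmac1 (-0.24) lowest. Of 4 complex II factors, 4 were lower (-0.063), with Sdhaf1 at -0.23 and Sdhaf3 at -0.068. Of 24 complex IV factors, 18 were lower (-0.11), led by Coa8 (-0.38) and Higd1a (-0.31). Of 5 complex V factors, 5 were lower (-0.20), led by Atpaf2 (-0.23) and Dmac2l (-0.20).

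The regulators of mitochondrial genes did not share one direction. Of 13, 7 were lower and 6 higher, and none passed the adjusted p in limma. Ppargc1a, the coactivator PGC-1 alpha, had 229, 151 and 287 in WT and 416, 376 and 426 in Irf1-/- (log2 fold change 0.91 ± 0.24 (SE), adjusted p = 0.0533 in limma), so all Irf1-/- libraries were above WT. The paper, which used DESeq2 with the same thresholds, lists Ppargc1a among its up-regulated genes. Nrf1, whose letters were searched above, had 6510.1, 7119 and 5956 in WT and 5683, 5869 and 5460.4 in Irf1-/- (-0.20, adjusted p = 0.291) and all Irf1-/- libraries below WT. Tfb1m (-0.25) was also lower with no overlap and Polrmt (0.18), the mitochondrial RNA polymerase, higher. Of 3 further lists of mitochondrial genes, the shares lower with no overlap are read against the 9.27% of all tested genes and the 13.4% of abundant ones. All 13 tested genes of mitochondrial structure and import had a lower mean, the median being -0.23, 8 (61.5%) with no overlap and 11 at an unadjusted p under 0.05, which 8.07% of all tested genes reached in that direction. Timm23 (-0.32) and Phb (-0.32) were lowest. All 13 citric acid cycle genes had a lower mean, the median being -0.17 with 4 (30.8%) of no overlap, led by Idh3a (-0.36, adjusted p = 0.0778) and Fh1 (-0.30). Among 77 mitochondrial ribosomal protein genes, 71 had a lower mean, the median was -0.17 and 21 (27.3%) had no overlap. Of the 77, 1 was past the adjusted p, against 1.49% of all tested genes lower by that rule. It was Mrpl12 (-0.42, adjusted p = 0.0375), a value lost on leaving out any 1 of 4 libraries. The 83 tested cytosolic ribosomal protein genes had a median of 0.022, with 36 lower. Of 12 hypoxia response genes, 4 were lower and 8 higher (median 0.085), with none past the adjusted p, and Adm (0.85, on few counts) and Hk2 (0.35) the highest.

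Some cell cycle genes and some erythroid, megakaryocyte, progenitor and myeloid markers were past the adjusted p beside these values, and no B or T cell marker was. The 20 cell cycle genes had a lower mean in 20 of 20, with a median of -0.50, 13 (65.0%) with no overlap and 5 past the adjusted p, namely Top2a (-0.77), Mki67 (-0.67), Aurkb (-0.63), Cdk1 (-0.50) and Tyms (-0.46). Over all tested genes 9.27% were lower with no overlap (13.4% of the abundant ones) and 1.49% lower by the adjusted p. By both thresholds 0.954% of all tested genes were called lower and 0.96% higher. The scores of the cell cycle genes were 0.33, 0.43 and -0.014 in WT and -0.12, -0.067 and -0.55 in Irf1-/-. WT replicate 3 was highest, as in complex II and unlike the other 4 complexes, and Irf1-/- replicate 4 was lowest. The summed level of 4 tested erythroid markers was 4889.8 to 5633 normalized counts in WT and 2257 to 3759.9 in Irf1-/-, with Car1 (-3.51) and Klf1 (-0.72) called lower and the other 4 of 8 listed genes, the hemoglobin genes, at 0. That of the 5 megakaryocyte markers was 44769 to 60084 and 24837 to 40098, with Pf4 (-1.11) and Gp1ba (-0.69) called lower. Among 3 progenitor markers Flt3 was called higher (0.67), and their sum was 17853 to 20003 and 20379 to 26211. The 8 myeloid markers summed to 29979.5 to 35309.6 and 33882 to 39878, with 1 past the adjusted p (Prtn3, 0.53) and S100a8 and S100a9 at 1033 and 1246 in WT replicate 4 against at most 131 elsewhere. B cell markers summed to 2649 to 3041 and 2871 to 3099, nearly all from Cd79b, and T cell markers to 135 to 271 and 222 to 362. The myeloid, B cell and T cell sums overlapped between genotypes. Of the cell cycle and marker genes named here as past the adjusted p, Pf4 stayed past it without any 1 library and the others did not. Car1 had an adjusted p of 0.0887 in edgeR and 0.198 in DESeq2. The part of cycling cells or of primed cells in the values of the respiratory genes was not tested.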

How the data were processed

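RNA-seq libraries of sorted HSCs from 3 WT and 3 Irf1-/- mice, 1 library per mouse, were analysed. Per the study's methods, libraries were made with SMART-Seq v4 and Nextera XT, which amplify complementary DNA without molecular identifiers, and read in pairs. Reads were trimmed with Trim Galore, aligned with HISAT2 (mm39 in the submitters' processing notes), counted per gene with Htseq-count and normalized with DESeq2. Whether strand was used in counting, and how reads with several matches were treated, are not given in the sources used here, so values of paralogs and of overlapping or antisense genes are uncertain. The deposited values are thus a signal, read counts that the authors divided by 1 size factor per library. Whole reads were recovered for 100% of the values (tolerance 0.01 reads). All columns were mapped to samples by their names, and the replicate numbers come from the labels.

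Genes with a mean of at least 10 normalized counts were kept. log2(normalized count + 1) was fitted with limma 3.58.1 (R 4.3.3) with a mean-variance trend and genotype as the one factor, so fold changes are on that scale and understate changes of low genes. Two-sided p-values were adjusted by Benjamini-Hochberg over all 17404 genes, and a call needed both an adjusted p under 0.05 and a log2 fold change beyond 0.58 in size. "No overlap" means that the 3 libraries of one genotype all lay on one side of the 3 of the other. p-values measure the spread between mice of each genotype. Genes named were those past the adjusted p, the 2 highest, 2 lowest and most abundant of each complex, core subunits, tissue isoforms and the 2 largest differences per list. Other genes with no overlap were named after their values were seen. The members and lists were chosen with earlier results of these data known.

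Lengths are those of the shortest GENCODE vM1 transcript among those with the longest coding sequence, matched by symbol to 96.7% of members and 88.7% of tested genes. That annotation is of another build than the files, so none of its coordinates were used. Promoter windows are RefSeq's on GRCm38.p6. Alternatives were edgeR 4.0.16 and DESeq2 1.42.0 on the recovered reads, pseudocounts of 0.5 and 5, no filter or a mean of 50, no trend, median centring, quantile normalization, removal of a length or GC trend, a replicate block and leaving out libraries. The fits were tested on simulated data. Some genes are counted in the totals but not reported here by name. Figures were drawn with matplotlib 3.10.9.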

Additional observations from a re-analysis of the deposited data

How the results depend on the processing

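The number of members called lower or higher stayed at 0 under every alternative run. The number lower by the adjusted p alone was 1 with limma, which had 1.49% of all tested genes lower by that rule. It was 0 without the mean-variance trend (0.190% of all genes), 4 with median centring (2.15%), 2 with quantile normalization (1.98%), 7 with DESeq2 (3.76%), 3 with a length trend removed (2.52%) and 4 with a GC trend removed (2.07%). It was 0 with WT replicate 3 and Irf1-/- replicate 2 both left out, 0 among members of at least 800 bases, 5 at an adjusted p under 0.1 (with no share of all genes given here to set it against), and 0 to 4 on leaving out the libraries one at a time, the 4 without Irf1-/- replicate 3 (Atp5g3, Atp5o, Cox5a and Sdhb, beside 1.53% of all genes). With the replicate number as a block it was 8, and 3.49% of all tested genes were lower. Libraries of the same number did not all deviate together (r = -0.094 for number 2, 0.25 for number 3 and 0.15 for number 4). So few values cannot show whether the numbers pair the samples. The labels do not state a pairing, and the main fit used none.

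Members lower with no overlap numbered 25 (27.2%) in the main fit, against 9.27% of all tested genes. They numbered 19 (20.7%) with quantile normalization, against 11.4%, and 30 (32.6%) with median centring, against 12.7%. With both libraries left out they numbered 52 (56.5%), against 18.9%. Leaving out the libraries one at a time gave 25 to 52, while the share of all tested genes was 12% to 19.8%. Among members under 800 bases they numbered 7 (14.9%), against 15.7% of abundant tested genes of that length. Members higher with no overlap numbered 1, against 10.6% of all tested genes. They numbered 0 at a mean of at least 50, 2 with the length trend removed and 2 with both libraries left out. They numbered 0 among members of at least 800 bases, and 1 to 2 with each library left out. The complex V median was -0.027 among its members under 800 bases. Median centring moved the median of all genes to -0.034.

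Of the 38 genes named by the rule for members, 25 kept their sign throughout and 13 changed it. Atpif1, which is not a member, is counted among the 13. The 35 genes named by the rule for lists kept theirs except Sdhaf3, at 0.025 with both libraries left out, and Adm, at -0.18 with both left out and -0.56 to 2.30 on leaving out 1 library at a time. Of 20 other genes named after their values were seen, 3 changed sign: Atp5e, at -0.058 with both left out and -0.19 to 0.20 on leaving out 1, Cox8c, at -0.71 and -0.52 to 0.83, and Slc25a4, at 0.026 and -0.16 to 0.012. Median centring gave -0.013 for Cox6b1 and -0.0079 for Ndufa4. Quantile normalization gave 0.011 for Atpif1, 0.025 for Cox7a2l, 0.019 for Cox8a and 0.016 for Uqcr10. Cox6b1 was -0.0065 in edgeR, -0.0072 in DESeq2 and -0.0049 with a GC trend removed, and Cox7a2l was 0.033 with a length trend removed. With both libraries left out the values were -0.095 for Atp5md, -0.11 for Cox6b1, -0.065 for Cox6b2, 0.041 for Cox7a2l, -0.060 for Ndufa1, -0.0050 for Ndufa3 and -0.031 for Uqcr11. Leaving out the libraries one at a time, log2 fold changes ranged over -0.19 to 0.27 for Atp5md, -0.22 to 0.081 for Atpif1, -0.55 to 0.055 for Cox4i2, -0.19 to 0.14 for Cox6b1, -0.0076 to 0.23 for Cox6b2, -0.25 to 0.048 for Cox7a2, -0.077 to 0.057 for Cox7a2l, -0.21 to 0.097 for Cox8a, -0.091 to 0.33 for Ndufa1, -0.077 to 0.40 for Ndufa3, -0.085 to 0.11 for Ndufa4, -0.18 to 0.10 for Uqcr10 and -0.15 to 0.20 for Uqcr11.

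With 3 libraries per genotype, most members did not differ by more than the spread between mice one gene at a time. RNA levels alone were measured, in sorted cells whose cell cycle and lineage transcripts also differed, and nothing here measures protein, assembled complexes or respiration. Members share libraries, so counts of members are not counts of independent results. Intervals for low isoforms such as Cox7a1 and Cox8c are limited by few reads. The causes of the changes with setting were not tested.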
